A study of Mus musculus with 31 samples.

Results

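A set of 9 transcripts with little written about them in the fetal gonad were followed through 31 microarrays of mouse ovary and testis: 1700013H16Rik, Ugt8a, Tex101, Slc25a31, Rpl39l, Rhox6, Tcl1, Nxf2 and Rrad. They are 9 of 18194 genes measured. They were selected on measured values of these arrays: their log2 signals differed strongly between wild-type and Wv/Wv gonads, or that difference was unlike in the ovary and the testis. Genotype and sex values of these genes are therefore given below as a description, with no test. The changes with age in wild-type gonads, and the related genes that were not picked, were tested. The age tests use wild-type arrays that were part of the values used for the picking. The related genes were listed with earlier results of these data known. Neither is therefore independent support.

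The arrays (Affymetrix, 1 per RNA sample) came from whole fetal gonads of wild-type and Wv/Wv mice at 3 fetal ages, 12, 14 and 16 dpc (days after mating). Wild-type ovary had 2, 3 and 3 arrays at these ages and Wv/Wv ovary 2, 3 and 3. Wild-type testis had 1, 3 and 3 arrays and Wv/Wv testis 3, 2 and 3. The labels number the samples as biological replicates and give no strain and no count of animals per sample. Values are the deposited log2 signals, so a difference of 1 is a doubling. A signal at or under 5.39, the 40th percentile of all values, is called low here, since the values carry no detection call. Where all Wv/Wv arrays of a group were low, a fold difference is given as a lower bound, with each low value raised to that limit.

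Wv is an allele of Kit, the receptor tyrosine kinase that primordial germ cells need to survive, migrate and multiply, and homozygotes have very few germ cells. In the mouse, germ cells of the ovary enter meiosis in fetal life, whereas those of the testis stop dividing and enter meiosis only after birth. The mean of 16 germ cell markers lay between 7.10 and 9.62 on the wild-type arrays and between 4.62 and 5.59 on the Wv/Wv arrays. The mean of 18 meiotic markers was 8.20 to 9.51 in wild-type ovaries at 14 and 16 dpc and 4.78 to 5.36 on the Wv/Wv arrays. Traces of germ cell RNA remained on a few mutant arrays: Dazl read 7.54 on Wv/Wv ovary array 1 at 14 dpc, against 4.51 and 4.43 on the other arrays of that group. Sertoli cell markers averaged 8.27 to 10.43 in testes and 6.38 to 6.98 in ovaries, so the sex labels held. A group of 10 arrays had a narrower spread of values than the other 21 (SD of 1.77 to 2.18), among them all 3 wild-type ovary arrays at 16 dpc. A whole gonad was measured, so fewer germ cells and less RNA per germ cell cannot be told apart.

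The 9 genes have unlike roles. 1700013H16Rik is an X-linked RIKEN transcript that RefSeq also lists as Slx2 and Xlr6. Ugt8a encodes the galactosyltransferase that makes galactosylceramide, a lipid of myelin, and that also acts in the route to the seminolipid of male germ cells. Tex101 encodes a surface protein of germ cells with a lipid anchor, of the Ly6/uPAR family. Slc25a31 encodes the germ cell form of the mitochondrial ADP/ATP carrier (also called ANT4), and Rpl39l a paralogue of the ribosomal protein Rpl39 found in male germ cells. Rhox6 is a homeobox gene of the X-linked reproductive homeobox cluster, and Tcl1 encodes a co-activator of the kinase Akt that is known from embryonic stem cells. Nxf2 encodes an X-linked relative of the general mRNA export factor Nxf1. Rrad encodes a small GTPase of the RGK family, which inhibits voltage-gated calcium channels.

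The upstream sequences of 3 genes are shown because they hold the motif copies described here, among 8 RefSeq promoter entries (GRCm38.p6) that matched 7 of the 9 genes. Each window lies before the annotated start, and the 250 bases before the start were searched on both strands. CACGTG is the E-box bound by MYC, MAX and related proteins, and CCAAT, which reads as ATTGG from the opposite strand, is the box bound by NF-Y. Capitals mark CACGTG in the windows of Nxf2 (chrX:134964755-134964854, minus strand) and Slc25a31 (chr3:40708758-40708803, plus strand). They mark the CCAAT box, in either direction, in Tex101 (chr7:24672051-24672210, minus strand).
Nxf2: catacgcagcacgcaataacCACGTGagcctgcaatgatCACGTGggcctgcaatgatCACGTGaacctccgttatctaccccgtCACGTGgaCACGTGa
Slc25a31: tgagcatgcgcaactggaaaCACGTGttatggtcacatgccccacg
Tex101: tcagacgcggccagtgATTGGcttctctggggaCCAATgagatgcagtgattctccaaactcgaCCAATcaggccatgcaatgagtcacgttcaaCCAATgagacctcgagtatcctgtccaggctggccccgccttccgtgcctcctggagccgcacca
Nxf2 held 5 copies of CACGTG, which began 80, 61, 42, 15 and 7 bases before the start. Of 32851 promoter entries of the same length, 6.02% held at least 1 copy and 7 (0.0213%) held 4 or more, and 5 was the highest count of any entry. The other Nxf2 entry, for a start elsewhere in the gene, held 0 copies. Slc25a31 held 1 copy, 93 bases before its start. Tex101 held 4 CCAAT boxes, a count reached by 0.84% of entries, whereas 33.8% held at least 1. Among the other genes with an entry, 1700013H16Rik held 1 CCAAT box, and Ugt8a, Rpl39l, Tcl1, Slc25a31 and both Nxf2 entries held 0. The CNCCTCAG motif of the meiotic initiator STRA8 was found in the Ugt8a entry alone among the 8 (1 copy; 6.42% of all entries). The motif TCCCGC, held by 16.9% of all entries, was searched as well. The Ugt8a entry and the Nxf2 entry without CACGTG each held 1 copy of it. CG pairs were also counted and are not described. The entries of Ugt8a, Rpl39l and 1700013H16Rik partly overlap the gene as RefSeq bounds it, and their sequence is not shown. These are matches of letters and do not show that a factor binds.

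**Figure D1:**
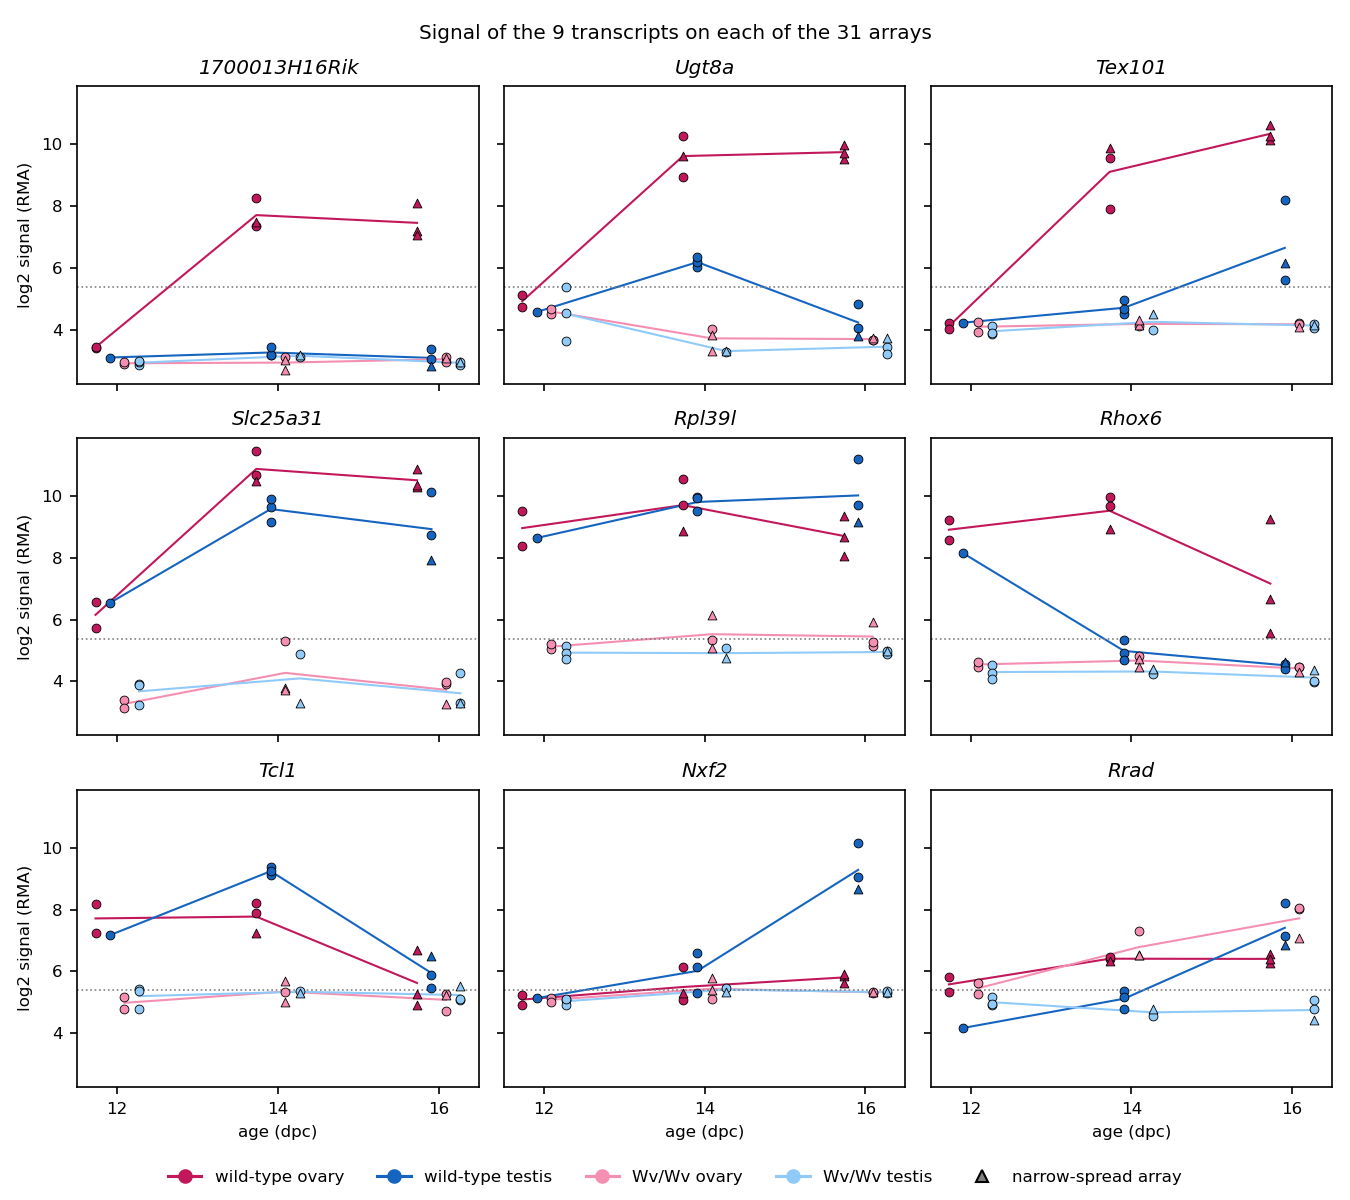
Deposited log2 signal (vertical axis) of each of the 9 transcripts on all 31 arrays, by age in dpc (horizontal axis). Each point is an array, triangles are the 10 narrow-spread arrays, lines join group means and the dotted line is the low-signal limit of 5.39. Slc25a31 and Rpl39l stand above every Wv/Wv array on all 15 wild-type arrays, whereas Rrad does so on 1.

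Across the 6 pairs of wild-type and Wv/Wv groups, most of the 9 genes were lower in the mutant with no overlap of arrays. The genes were picked on strong genotype or interaction effects, so these counts are no independent result. The count was 6 of 9 in the ovary at 12 dpc (17.5% of all genes), 7 at 14 dpc (10.9%) and 7 at 16 dpc (11.1%). In the testis it was 7 at 12 dpc (22.2%, against 1 wild-type array), 6 at 14 dpc (14.9%) and 7 at 16 dpc (2.84%). These counts include genes that were low on every array of both genotypes. In the ovary at 12 dpc these were Ugt8a (-0.33) and 1700013H16Rik (-0.52). In the testis at 12 dpc they were Nxf2 (-0.10), 1700013H16Rik (-0.17) and Tex101 (-0.28). Later testis cases were Rhox6 (-0.67) and Rrad (-0.44) at 14 dpc, and Ugt8a (-0.78) and Rhox6 (-0.40) at 16 dpc. Rrad went the other way, with every Wv/Wv array above every wild-type array, in the ovary at 14 and 16 dpc and in the testis at 12 dpc. The share of all genes in that direction was not counted. For Rrad the ovary difference at 14 dpc was only 0.37 ± 0.30. In the testis at 14 and 16 dpc its Wv/Wv arrays were below every wild-type array. At 12 and 14 dpc every testis array was low for Rrad, and the 14 dpc difference was only -0.44 ± 0.34. At 16 dpc, where the wild-type testis was above the low limit, the direction differed between the gonads. The other 8 genes had no group in which every Wv/Wv array was above every wild-type array.

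1700013H16Rik, Ugt8a and Tex101 were low in the wild-type ovary at 12 dpc and rose steeply by 14 dpc. For 1700013H16Rik the signals were 3.41 and 3.45 at 12 dpc, 7.50, 8.26 and 7.37 at 14 dpc, and 7.18, 8.11 and 7.08 at 16 dpc. Every wild-type testis array lay between 2.83 and 3.43, and the 16 Wv/Wv arrays lay between 2.69 and 3.18. Its signal was thus above the low limit on the 6 wild-type ovary arrays of 14 and 16 dpc and on no other array. The rise from 12 to 14 dpc in the ovary was 4.28 ± 0.26 (SE of the fit; 3 against 2 arrays; limma adjusted p = 2.65e-10). In the testis, with 1 array at 12 dpc, the same step was 0.16, and the difference between the 2 gonads was 4.12 ± 0.42 (limma adjusted p = 4.5e-06). These arrays were among those on which the genes were picked. The adjusted p-values of the gonad differences here, and for Ugt8a and Tex101 below, are therefore no independent support. For 1700013H16Rik the wild-type ovary at 14 dpc was at least 5.00-fold above the Wv/Wv ovary.

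Ugt8a read 5.12 and 4.72 in the wild-type ovary at 12 dpc, 9.63, 10.28 and 8.96 at 14 dpc, and 9.54, 9.97 and 9.74 at 16 dpc. Testis signals of the wild type were 4.57 at 12 dpc, 6.03, 6.18 and 6.34 at 14 dpc, and 3.80, 4.84 and 4.05 at 16 dpc. The testis arrays of 14 dpc thus stood above those of 12 and 16 dpc, and under every ovary array of 14 and 16 dpc. The Wv/Wv arrays ran from 3.20 to 5.38. Ugt8a rose by 4.70 ± 0.38 in the ovary from 12 to 14 dpc (limma adjusted p = 3.21e-08). In the testis it fell by 1.96 ± 0.34 from 14 to 16 dpc (limma adjusted p = 0.00312), after a step of 1.62 from 12 to 14 dpc that missed the threshold (adjusted p = 0.185). The first step was larger in the ovary than in the testis by 3.09 ± 0.62 (adjusted p = 0.0219). That difference lost its call when wild-type ovary array 1 or 2 of 12 dpc, ovary array 2 of 14 dpc, or testis array 1 or 2 of 14 dpc was left out, with values of 2.76 to 3.29 and adjusted p of 0.0547 to 0.0938. The other Ugt8a probe set was dimmer and kept the ovary order, with means of 4.13, 4.71 and 5.48 at 12, 14 and 16 dpc. Of these only the 16 dpc mean was above the low limit. Its testis means of 4.16, 4.10 and 4.20 did not show the 14 dpc peak, but all were low and so cannot decide on it. At 16 dpc the wild-type ovary was at least 20.6-fold above the Wv/Wv ovary for the main probe set.

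Tex101 read 4.20 and 4.02 in the wild-type ovary at 12 dpc, 9.87, 9.54 and 7.92 at 14 dpc, and 10.15, 10.27 and 10.62 at 16 dpc. On wild-type testis arrays it read 4.23 at 12 dpc, 4.49, 4.96 and 4.68 at 14 dpc, and 6.15, 8.20 and 5.60 at 16 dpc. All 3 testis arrays of 16 dpc were above the low limit, and all earlier testis arrays and all Wv/Wv arrays (3.84 to 4.50) were under it. The ovary rise from 12 to 14 dpc was 5.00 ± 0.50 (limma adjusted p = 6.28e-07), and it was larger than in the testis by 4.52 ± 0.80 (adjusted p = 0.00716). The testis rise from 14 to 16 dpc was 1.94 ± 0.45 (limma adjusted p = 0.0335). It rested on few arrays: without testis array 2 of 16 dpc it was 1.17 (adjusted p = 0.0674), and without testis array 1, 2 or 3 of 14 dpc it was 1.83, 2.06 and 1.92 (adjusted p of 0.166, 0.0797 and 0.134). The Wv/Wv ovary was at least 31.1-fold lower at 16 dpc, and the Wv/Wv testis at least 2.40-fold lower.

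Over the same ovary step from 12 to 14 dpc, 17 of the 18 meiotic markers rose (median change 3.01), as did 7 of the 16 germ cell markers (median 1.64). Over all 18194 genes, 1.56% rose and 1.04% fell, and the median change was 0.01. Of the 9 genes, 4 rose and 0 fell (median 0.83), namely the 3 above and Slc25a31. In the difference between the gonads over that step, 3 of the 9 were larger in the ovary (0.143% of all genes), beside 5 of the 18 meiotic markers (median 2.32). The part of germ cell number in these changes was not tested. The arrays used here are among those on which the genes were picked. The age changes, and their differences between the gonads, are therefore no independent check of that choice.

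**Figure D2:**
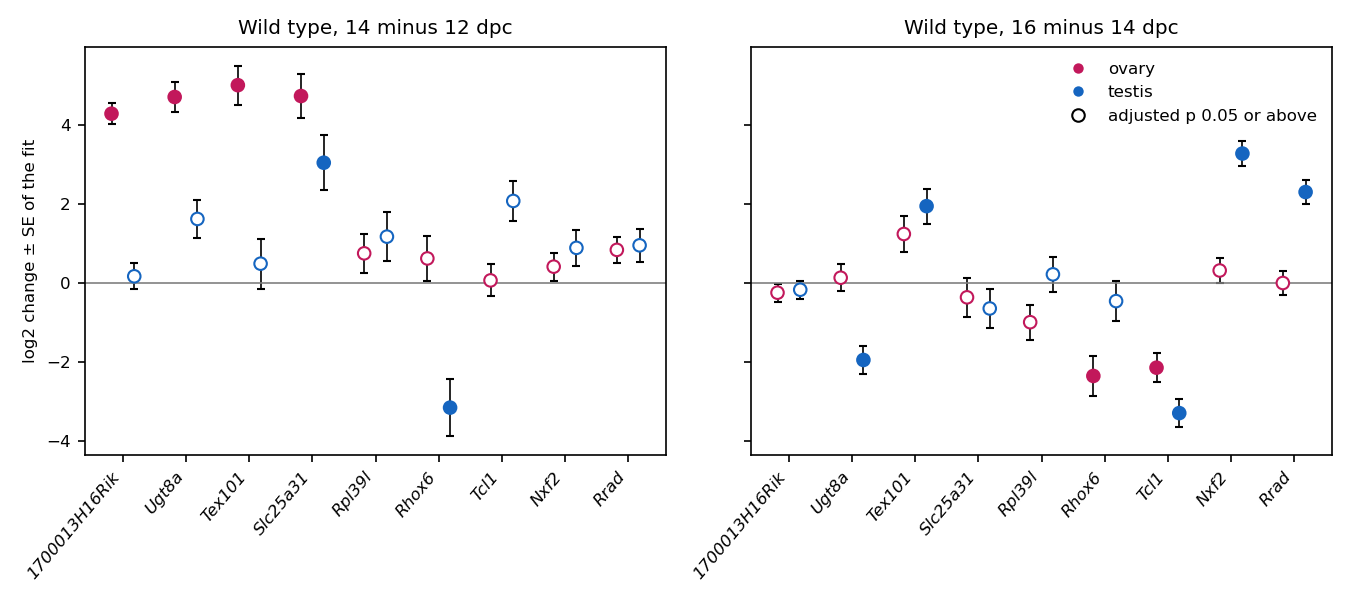
Log2 change with age in wild-type ovary and testis for each of the 9 genes (horizontal axis), with the SE of the fit; the left panel is 14 minus 12 dpc and the right panel 16 minus 14 dpc. Filled points passed an adjusted p of 0.05 over all genes. The first step in the ovary raised 4 genes, and the last step in the testis raised 3 and lowered 2.

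Slc25a31 and Rpl39l were carried by every wild-type group. Slc25a31 read 5.73 and 6.58 in the wild-type ovary at 12 dpc, 10.51, 11.45 and 10.69 at 14 dpc, and 10.30, 10.88 and 10.37 at 16 dpc. Wild-type testis signals were 6.54 at 12 dpc, 9.17, 9.66 and 9.92 at 14 dpc, and 7.95, 10.12 and 8.73 at 16 dpc. The ovary arrays of 14 and 16 dpc were all above every testis array. The 16 Wv/Wv arrays lay between 3.14 and 5.32, and all 15 wild-type arrays were above them. The highest mutant array was Wv/Wv ovary array 1 of 14 dpc, the array on which Dazl also remained. Slc25a31 rose by 4.73 ± 0.55 in the ovary (limma adjusted p = 5.67e-06) and by 3.04 ± 0.69 in the testis (adjusted p = 0.0347) from 12 to 14 dpc. The testis value, against 1 array at 12 dpc, lost its call without testis array 2 or 3 of 14 dpc (3.00 and 2.87; adjusted p of 0.0916 and 0.118). The wild-type ovary was at least 45.2-fold above the Wv/Wv ovary at 14 dpc, and the wild-type testis at least 18.3-fold above the Wv/Wv testis.

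Rpl39l read 8.40 and 9.53 in the wild-type ovary at 12 dpc, 8.86, 10.55 and 9.72 at 14 dpc, and 8.69, 9.37 and 8.08 at 16 dpc. The wild-type testis gave 8.65 at 12 dpc, 9.51, 9.98 and 9.95 at 14 dpc, and 9.18, 11.19 and 9.71 at 16 dpc. The 6 wild-type groups overlapped each neighbour in the order of their means, and none of the 4 age changes passed the test. All 15 wild-type arrays (8.08 to 11.19) were above all Wv/Wv arrays (4.73 to 6.14). The Wv/Wv testis was at least 24.9-fold lower than the wild-type testis at 16 dpc. Rpl39l was thus already high at 12 dpc in both sexes, before the rise of the meiotic markers.

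Rhox6 and Tcl1 were highest at 12 or 14 dpc and declined afterwards. Rhox6 read 8.59 and 9.24 in the wild-type ovary at 12 dpc, 8.95, 9.96 and 9.68 at 14 dpc, and 5.56, 9.28 and 6.67 at 16 dpc. In the wild-type testis it read 8.15 at 12 dpc, 4.93, 5.34 and 4.69 at 14 dpc, and 4.62, 4.56 and 4.39 at 16 dpc. The testis arrays were thus low from 14 dpc on, when all 3 ovary arrays were high. The Wv/Wv arrays ran from 3.97 to 4.83. Rhox6 fell by 2.36 ± 0.51 in the ovary from 14 to 16 dpc (limma adjusted p = 0.0366) and by 3.16 ± 0.72 in the testis from 12 to 14 dpc (adjusted p = 0.0347). The difference between the gonads over the step from 12 to 14 dpc was 3.78 and missed the threshold (adjusted p = 0.0997). The testis fall rests on 1 array at 12 dpc, and it lost its call without testis array 1, 2 or 3 of 14 dpc (changes of -3.13, -3.34 and -3.01; adjusted p of 0.0793, 0.0558 and 0.114). On that 12 dpc array the decidual prolactin gene Prl8a2 read 8.73, against 3.44 to 5.98 on the other 30 arrays. It was the only 1 of 7 placental genes (a list made after the values were seen) that stood above every other array. The rest of that list lay within the range of the other arrays. Rhox6 is also known from the placenta, and the part of such tissue in its signal was not tested.

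Tcl1 read 7.25 and 8.18 in the wild-type ovary at 12 dpc, 7.24, 8.22 and 7.88 at 14 dpc, and 5.27, 6.68 and 4.93 at 16 dpc. In the wild-type testis it read 7.18 at 12 dpc, 9.11, 9.38 and 9.26 at 14 dpc, and 6.49, 5.88 and 5.47 at 16 dpc. The 3 testis arrays of 14 dpc were above every other array, and the Wv/Wv arrays ran from 4.72 to 5.68. Tcl1 fell by 3.30 ± 0.36 in the testis from 14 to 16 dpc (limma adjusted p = 6.93e-06). It also fell in the ovary over that step, with a change of -2.15 ± 0.36 (adjusted p = 0.0106). The testis step from 12 to 14 dpc was 2.07 ± 0.51 and missed the threshold (adjusted p = 0.0585). The Wv/Wv testis was at least 14.5-fold lower at 14 dpc.

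Both ovary falls were uneven between arrays. Wild-type ovary array 2 of 16 dpc read 9.28 for Rhox6 and 6.68 for Tcl1, where the other 2 arrays read at most 6.67 and 5.27. On the same array Pou5f1, a pluripotency gene of early germ cells, read 8.34 against 5.84 and 5.33, and Stra8, which starts meiosis, read 11.90 against 8.91 and 8.76. Tex101 and the meiotic gene Sycp3 were high on all 3. Without that array the falls were larger, at -3.41 for Rhox6 (adjusted p = 8.53e-07) and -2.68 for Tcl1 (adjusted p = 3.48e-05). Without ovary array 1 of 16 dpc they were -1.56 and -1.97 (adjusted p of 0.372 and 0.167), and without array 3 of that age -2.11 and -1.80 (0.283 and 0.161). Without array 2 of 14 dpc they were -2.14 and -1.93 (0.245 and 0.0814), and without array 3 of 14 dpc -2.29 and -2.10 (0.203 and 0.091). All 3 ovary arrays of 16 dpc had the narrow spread, and against the narrow array of 14 dpc alone the differences were -1.78 and -1.61, with no test. With array class as a term the changes were -2.29 (adjusted p = 0.0445) and -2.23 (adjusted p = 0.0105). With housekeeping centring both calls were lost (-2.20 and -1.99; adjusted p of 0.073 and 0.0569), and with every probe set tested that of Rhox6 was (adjusted p = 0.0536). Over all genes 0.275% fell and 0.0824% rose in this step, 6 of the 16 germ cell markers fell (median -1.47), and of the 9 genes 2 fell and 0 rose (median -0.25).

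**Figure D3:**
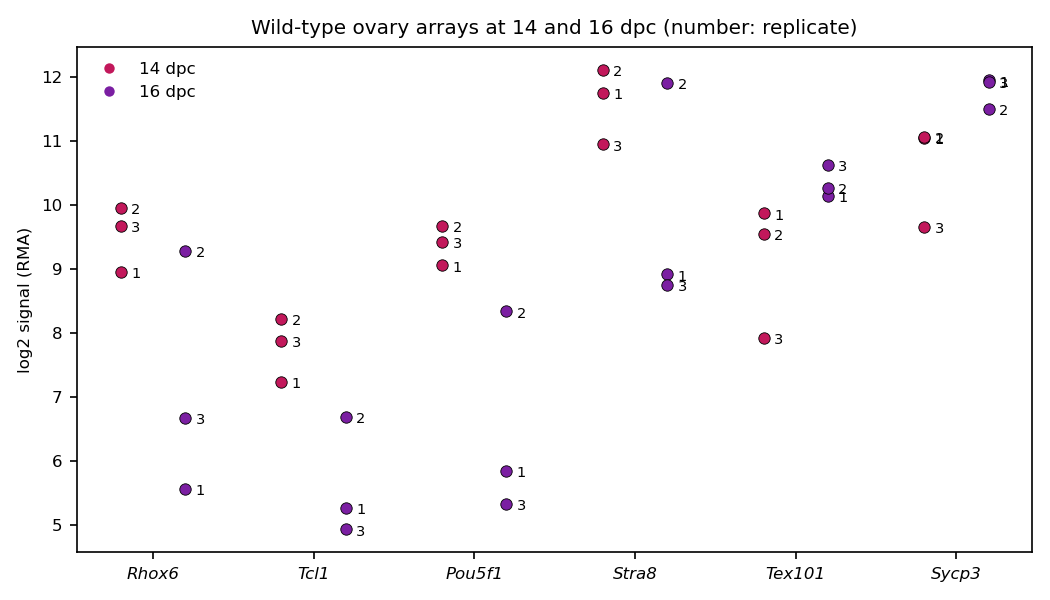
Log2 signal (vertical axis) of Rhox6, Tcl1, Pou5f1, Stra8, Tex101 and Sycp3 on the wild-type ovary arrays of 14 and 16 dpc, each point an array with its replicate number. Array 2 of 16 dpc stands above the other 2 arrays of that age for Rhox6 (9.28), Tcl1 (6.68), Pou5f1 (8.34) and Stra8 (11.90).

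Nxf2 and Rrad rose late in the testis. Nxf2 read 5.14 in the wild-type testis at 12 dpc, 5.31, 6.60 and 6.16 at 14 dpc, and 8.67, 10.15 and 9.05 at 16 dpc. The wild-type ovary arrays lay between 4.93 and 6.13 at the 3 ages, and the Wv/Wv arrays between 4.92 and 5.80. The 3 testis arrays of 16 dpc were thus above all 28 others. The testis rise from 14 to 16 dpc was 3.27 ± 0.32 (limma adjusted p = 1.51e-06). The ovary step over the same days was smaller by 2.96 ± 0.45 (adjusted p = 0.00194). The arrays of this contrast were among those on which the genes were picked, so its adjusted p is no independent support. The Wv/Wv testis was at least 15.0-fold lower at 16 dpc, and in the ovary the 2 genotypes differed by -0.06 at 14 dpc and -0.48 at 16 dpc (Wv/Wv minus wild type).

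Rrad read 5.82 and 5.34 in the wild-type ovary at 12 dpc, 6.35, 6.40 and 6.48 at 14 dpc, and 6.55, 6.27 and 6.40 at 16 dpc. In the Wv/Wv ovary it read 5.64 and 5.27, then 7.30, 6.52 and 6.54, then 8.03, 7.09 and 8.05. The mutant ovary arrays overlapped the wild type at 12 dpc and stood above it at 14 and 16 dpc. The difference was only 0.37 ± 0.30 at 14 dpc, where the nearest arrays read 6.52 and 6.48. At 16 dpc the difference was 1.32 ± 0.30. Array class moves with that difference: the 3 wild-type arrays are narrow, and the narrow mutant array, array 2, gave the lowest of the 3 mutant signals (7.09). Between narrow arrays alone the difference was 0.68 (1 against 3 arrays), and with array class as a term it was 0.97 ± 0.25. In the wild-type testis it read 4.17 at 12 dpc, 4.80, 5.38 and 5.18 at 14 dpc, and 6.86, 8.23 and 7.16 at 16 dpc. In the Wv/Wv testis it read 5.18, 4.90 and 4.93, then 4.57 and 4.78, then 4.42, 4.77 and 5.06, and so stayed low at every age. The Wv/Wv testis was at least 4.08-fold lower at 16 dpc.

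The wild-type testis rise of Rrad from 14 to 16 dpc was 2.30 ± 0.30 (limma adjusted p = 9.23e-05). The ovary step was smaller by 2.30 ± 0.43 (adjusted p = 0.0202). As for Nxf2, the adjusted p of this difference is no independent support. That difference lost its call without ovary array 3 of 16 dpc, ovary array 2 or 3 of 14 dpc, or testis array 1 or 3 of 14 dpc (values of -2.33 to -2.14; adjusted p of 0.0508 to 0.0876). Beside the higher Rrad signal of the Wv/Wv ovary at 16 dpc, the mean of the mesonephros markers was 7.41 to 7.42 against 6.63 to 6.97 in the wild type, and 1 of its 4 measured genes was called higher. The pregranulosa mean was 10.06 to 10.28 against 9.61 to 9.71 (0 of 8 called). The Leydig mean was 7.72 to 7.81 against 7.12 to 7.38 (0 of 5 called), and the endothelial mean 7.41 to 7.69 against 7.06 to 7.26 (0 of 6 called). The macrophage mean was 7.37 to 8.21 against 7.02 to 7.47 (1 of 6 called higher), with its lowest value on the narrow array, and the smooth muscle mean was 7.99 to 8.08 against 7.69 to 7.80 (0 of 5 called). Erythroid and mast cell markers were lower, with means of 6.39 to 6.67 against 8.02 to 9.55 (3 of 5 called) and 4.26 to 4.85 against 5.17 to 6.19 (3 of 5 called). Narrow Wv/Wv array 2 also held the lowest pregranulosa (10.06), Leydig (7.72) and endothelial (7.41) means of its group. Its mesonephros (7.42) and smooth muscle (8.08) means were the highest of the group. The part of these cells in the Rrad signal was not tested.

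In the testis step from 14 to 16 dpc, 3 of the 9 genes rose (Nxf2, Rrad and Tex101; 0.368% of all genes) and 2 fell (Ugt8a and Tcl1; 0.462%). The median change of the 9 was -0.18, and that of all genes -0.10. Of the germ cell markers 1 rose and 2 fell, and of the meiotic markers 0 rose and 2 fell. In the earlier testis step 1 of the 9 rose (0.583% of all genes) and 1 fell (0.203%), beside 2 of 16 germ cell markers (median 1.43), 3 of 18 meiotic markers (median 0.69) and 4 of 5 measured Leydig cell markers (median 4.91) that rose. In the difference between the gonads from 14 to 16 dpc, 2 of the 9 were lower in the ovary (0.0495% of all genes) and 0 higher (0.0769%). When the testis step from 14 to 16 dpc was fitted on the 6 arrays of those groups alone, none of the 5 changes passed (adjusted p of 0.078 to 0.682), and neither did the 2 differences when fitted on the 12 arrays they compare (0.357 and 0.449). The same restriction ended the calls of Ugt8a and Tex101 in the gonad difference from 12 to 14 dpc (adjusted p of 0.0608 and 0.0595) and of Rhox6 and Tcl1 in the ovary from 14 to 16 dpc (0.122 and 0.12). With every probe set tested, Rhox6 and Slc25a31 in the testis from 12 to 14 dpc (both 0.0548) and Tex101 in the testis from 14 to 16 dpc (0.0506) missed the threshold.

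Related genes of the 9 that were not picked were tested next. They were listed with earlier results of these data known, so the counts are no independent support. Of 53 paralogues and partners listed, 37 were measured, and they were compared between genotypes at each age. In the ovary 1 of the 37 was lower in Wv/Wv at 12 dpc (0.0934% of all genes), 4 at 14 dpc (4.08%) and 5 at 16 dpc (2.35%). None was higher (0 of 37 at each age), where 0%, 0.291% and 1.39% of all genes were. In the testis 0 passed at 12, 14 and 16 dpc (0.033%, 0.594% and 0.484% of all genes were lower). At an unadjusted limma p under 0.05, 2, 8 and 12 of the 37 differed in the ovary at 12, 14 and 16 dpc. Of these, 2, 8 and 6 were lower and the rest higher. In the testis 2, 3 and 4 differed, of which 2, 2 and 3 were lower. The median over the 37 was -0.10 in the ovary at 14 dpc, where that over all genes was 0.

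The Rhox cluster held most of the called genes. Rhox5 is the neighbour of Rhox6 on the X chromosome, Rhox9 lies 2 coding genes away and Rhox13 lies 8 away; 3 of 12 listed cluster genes were measured. Rhox9 averaged 8.68 ± 0.57 (SD, n = 2) in the wild-type ovary at 12 dpc, 9.70 ± 0.36 (n = 3) at 14 dpc and 7.40 ± 1.29 (n = 3) at 16 dpc. In the Wv/Wv ovary it averaged 5.14, 5.35 and 5.07. It was lower in the mutant by -3.54 ± 0.53, -4.35 ± 0.44 and -2.33 ± 0.44 (SE; limma adjusted p of 0.00338, 2.94e-07 and 0.00205). The 12 dpc call was lost without Wv/Wv ovary array 1 or 2 or wild-type ovary array 2 (-3.36, -3.72 and -3.14; adjusted p of 0.142, 0.0576 and 0.301). In the testis at 12 dpc Rhox9 differed by -3.07 ± 0.62 and missed the threshold (adjusted p = 0.0926). Rhox6 and Rhox9 are close copies, and whether their probe sets tell them apart was not tested.

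Rhox5 differed between the genotypes by -4.56 ± 0.61 in the ovary at 14 dpc (limma adjusted p = 2.46e-05) and by -2.32 ± 0.61 at 16 dpc (adjusted p = 0.034). Its 16 dpc call was lost without Wv/Wv array 1 or 3 or wild-type array 2 (-2.12, -2.33 and -1.11; adjusted p of 0.161, 0.112 and 0.142). In the wild-type testis Rhox5 stayed at 9.28 ± 0.12 (SD, n = 3) at 14 dpc, an age at which Rhox6 was low there. The genotype difference of Rhox5 in that testis group was -2.62 ± 0.68 and missed the threshold (adjusted p = 0.114). Rhox13 ran on another schedule: in the wild-type ovary it averaged 3.97, 5.40 and 6.27 at 12, 14 and 16 dpc. It was lower in the Wv/Wv ovary by -1.51 ± 0.41 at 14 dpc (adjusted p = 0.0333) and by -2.43 ± 0.41 at 16 dpc (adjusted p = 0.000658). The 14 dpc call was lost without any 1 of the 5 ovary arrays other than wild-type array 1 (-1.69 to -1.15; adjusted p of 0.0519 to 0.277). It was also lost with housekeeping centring (-1.34, adjusted p = 0.0633) and only the groups compared (-1.51, 0.141). Fitted on only the groups compared, the calls of Rhox9 at 12 dpc (adjusted p = 0.193) and of Rhox9, Rhox5 and Rhox13 at 16 dpc (0.0709, 0.136 and 0.0569) were lost as well.

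Among the 6 Ly6/uPAR relatives and partners of Tex101, Lypd4, another lipid-anchored surface protein from the same chromosome 7 region, was lower in the Wv/Wv ovary at 16 dpc by -3.18 ± 0.46 (limma adjusted p = 7.13e-05). It averaged 4.57, 6.48 and 7.85 in the wild-type ovary at 12, 14 and 16 dpc, and its 14 dpc genotype difference of -1.30 ± 0.46 missed the threshold (adjusted p = 0.121). Lypd3, which lies near Tex101, was not called at any age. Of the ribosomal pairs, Rps27l was lower in the Wv/Wv ovary by -0.93 ± 0.25 at 14 dpc (adjusted p = 0.0312) and by -1.18 ± 0.25 at 16 dpc (adjusted p = 0.00687). The 14 dpc call of Rps27l was lost without Wv/Wv array 1 or 3 or wild-type array 1 or 2 (-0.98 to -0.70; adjusted p of 0.0706 to 0.135). It was also lost with cyclic loess (-0.64, adjusted p = 0.254), housekeeping centring (-0.76, 0.114), array weights (-0.73, 0.0519) and only the groups compared (-0.93, 0.229). The 16 dpc call of Rps27l was lost without Wv/Wv array 3 (-1.05; adjusted p = 0.058).

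The closest paralogues of 4 of the genes did not pass the test. Rpl39, the ribosomal protein that Rpl39l resembles, differed between genotypes by -0.04 ± 0.15 in the ovary at 14 dpc (limma adjusted p = 0.915), where Rpl39l differed by -4.18 ± 0.44. The Rpl39 signal averaged only 6.14 in that wild-type ovary and 6.10 in the Wv/Wv ovary, close to the low limit. A signal so close to that limit cannot show whether Rpl39 was unchanged. Slc25a4 and Slc25a5, the ADP/ATP carriers of somatic cells, differed in the ovary at 14 dpc by -0.13 ± 0.29 and -0.46 ± 0.31 (adjusted p of 0.835 and 0.472), where Slc25a31 differed by -6.61. Nxf1 differed by 0.23 ± 0.23 in the testis at 16 dpc (adjusted p = 0.752), where Nxf2 differed by -3.96. Gem, the relative of Rrad, differed by 0.86 ± 0.53 in the ovary at 16 dpc (adjusted p = 0.318). Of 7 genes of galactosphingolipid metabolism, the pathway of Ugt8a, and of 6 measured genes of the Tcl1 and Akt list, 0 passed at any age in either gonad. The median of the galactosphingolipid list in the ovary at 16 dpc was 0.82, where that of all genes was 0.03. All wild-type ovary arrays of that age have the narrow spread, and Wv/Wv arrays 1 and 3 do not. Array class thus goes partly with genotype there, and its part in this median was not tested.

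**Figure D4:**
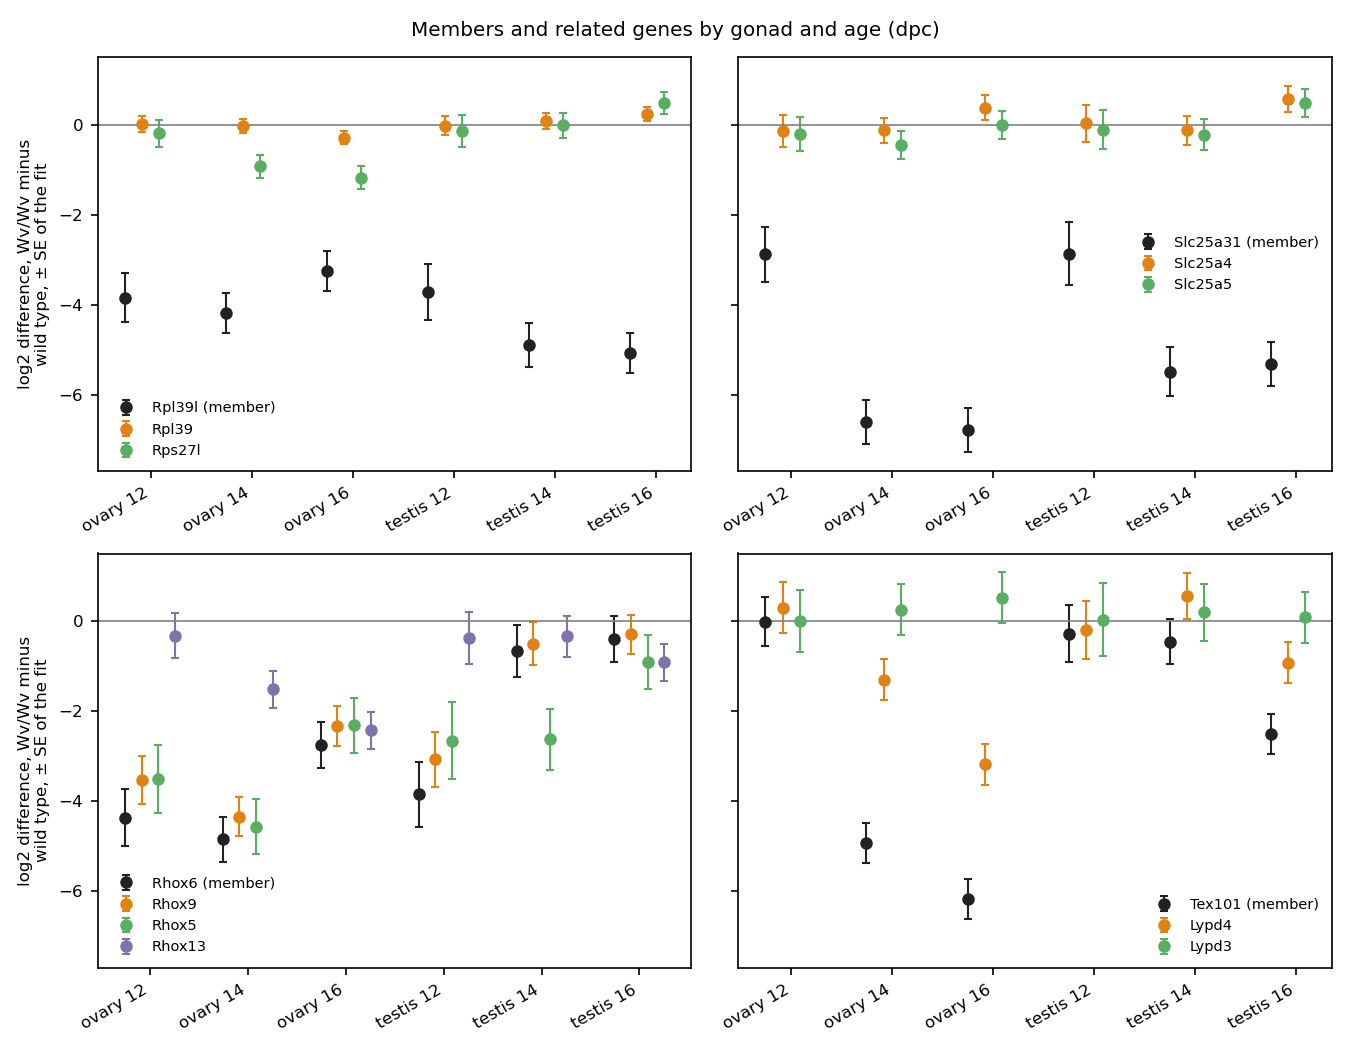
Log2 difference of Wv/Wv minus wild type with the SE of the fit (vertical axis), for Rpl39l, Slc25a31, Rhox6 and Tex101 (black) and their relatives, by gonad and age in dpc. Rpl39 (whose signal was close to the low limit in every group), Slc25a4, Slc25a5 and Lypd3 lie near 0. Rhox9 (-4.35 in the ovary at 14 dpc) and Lypd4 (-3.18 in the ovary at 16 dpc) do not.

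The genes with the most similar profile over the 12 group means were found by Pearson's r among 3113 genes, as a description, since the groups share arrays, ages and the loss of germ cells. For 1700013H16Rik they were Meioc (0.992), M1ap (0.988) and Terb2 (0.984), all of which act in meiosis. For Ugt8a they were 2310061I04Rik (0.969), Pou4f1 (0.967) and Pias2 (0.966), and for Tex101 they were Fam90a1b (0.992), Tc2n (0.990) and Rhox13 (0.986). Slc25a31 was nearest to the germ cell genes Stk31 (0.996), Tex14 (0.990) and Mael (0.982), and Rpl39l to Asz1 (0.974), Tex19.1 (0.960) and Ddx4 (0.958). Tcl1 was nearest to the pluripotency genes Prdm14 (0.988), Nanog (0.970) and Dppa2 (0.968). Rhox6 was nearest to Rhox9 of the same cluster (0.994), then Aurkc (0.938) and Pcolce2 (0.934).

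Nxf2 was nearest to Piwil4 (0.977), Enkur (0.973) and Dnmt3l (0.964), of which Piwil4 and Dnmt3l serve transposon silencing in fetal male germ cells. Rrad had the weakest neighbours, Cyp4f14 (0.918), Hsd17b2 (0.869) and Igtp (0.841). Among the 9 genes the closest pairs were 1700013H16Rik with Ugt8a (0.948), 1700013H16Rik with Tex101 (0.933) and Rpl39l with Slc25a31 (0.907). The highest r of Rrad with any of the others was 0.482, with Nxf2.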

How the data were processed

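Signals of 45101 probe sets on 31 Affymetrix arrays were analysed. The authors deposited log2 values, made with RMA per the submitters' processing notes; its version is not given in the sources used here. Of the probe sets, 34958 carried 1 gene symbol in the platform annotation, 932 carried several and 9211 were not listed. Each of the 18194 genes was represented by its brightest probe set on average. limma 3.58.1 in R 4.3.3 fitted 1 mean per group to all 31 arrays (19 residual and 4.00 prior degrees of freedom), with Benjamini-Hochberg adjustment over all genes and a threshold of 0.05. The fit was tested on simulated data: for the ovary step from 12 to 14 dpc, 86% of genes changed by 2 (log2) and 45% of those changed by 1 were recovered, with 11 false calls. The simulated noise was independent between genes and arrays and held no narrow-spread arrays. These figures may therefore not carry over to the real arrays. The number of arrays limits the precision. The 9 genes, their relatives and the marker lists were chosen with earlier results of these data known. Named genes were all 9, their called relatives and closest paralogues, the 3 nearest profiles per gene among genes whose group means had an SD of at least 0.5, and 5 reference germ cell genes; Dazl, Pou5f1, Stra8 and Sycp3 of these are printed for single arrays. Lypd3, Prl8a2 and the placental list were added after values were seen. No 2 arrays of a group held the same values (27 pairs, smallest SD of the difference 0.179). Same-numbered arrays did not deviate together (26 of 84 correlations over 0.1, median -0.016), so no pairing was used. Alternatives were array class (boundary SD of 2.25), cyclic loess, housekeeping centring (9 genes), array weights, a low-signal filter, every probe set, a replicate block, only the groups compared, and leaving out each array. A fit on wide-spread arrays only, and the Rrad values by array class, were added after seeing the data. Promoters came from RefSeq (GRCm38.p6); Rrad and Rhox6 had no entry. Pandas 2.3.3 in Python 3.11.15 was used for the sequences.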

Additional observations from a re-analysis of the deposited data

Results flagged for a closer look

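In all, 5 of the tested differences between ovary and testis in the change with age passed the threshold. The wild-type arrays compared here were part of the values on which the genes were picked. For 1700013H16Rik and Tex101 the untested ovary minus testis values of the wild type at 14 dpc were 4.45 and 4.40. For Nxf2 at 16 dpc it was -3.48. The adjusted p-values of these differences are therefore no independent support. From 12 to 14 dpc the step was larger in the ovary for Ugt8a by 3.09 (log2, limma adjusted p = 0.0219), for 1700013H16Rik by 4.12 (adjusted p = 4.5e-06) and for Tex101 by 4.52 (adjusted p = 0.00716). All 3 ovary arrays of 14 dpc were above both of 12 dpc for each of these genes, and the testis arm has 1 array at 12 dpc. From 14 to 16 dpc the ovary minus testis difference was -2.30 for Rrad (adjusted p = 0.0202) and -2.96 for Nxf2 (adjusted p = 0.00194), and all 3 testis arrays of 16 dpc were above all 3 of 14 dpc for both. No group had enough arrays for a test of single outlying arrays.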

How the results depend on the processing

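The 18 called changes of the 9 genes were refitted under the alternatives. Of 171 values from settings other than leaving out an array, 153 kept the call, 18 lost it and 0 reversed; with 1 array left out, 89 of 116 kept it, 27 lost it and 0 reversed. The ovary rises of 1700013H16Rik, Ugt8a, Tex101 and Slc25a31 from 12 to 14 dpc, and the gonad difference of 1700013H16Rik in that step, kept their calls in every setting that could be run (the low-signal filter removed 1700013H16Rik and Ugt8a). Numbers of the 9 genes called moved as follows. Ovary 12 to 14 dpc, 4: 2 with the low-signal filter; 4 with 1 array left out. Ovary 14 to 16 dpc, 2: 0 with housekeeping centring, 5 with array weights, 1 with every probe set, 0 with only the groups compared, 0 to 2 with 1 array left out. Testis 12 to 14 dpc, 2: 6 with array weights, 0 with every probe set, 5 with only the groups compared, 0 to 1 with 1 array left out. With the replicate number as a block that count was 1, since Slc25a31 missed the threshold (3.00, adjusted p = 0.0837); no other call of the 9 genes was lost under the block. Testis 14 to 16 dpc, 5: 0 with only the groups compared, 4 to 5 with 1 array left out. Gonad difference 12 to 14 dpc, 3: 6 with array weights, 1 with the low-signal filter, 2 to 3 with 1 array left out. Gonad difference 14 to 16 dpc, 2: 5 with array weights, 0 with only the groups compared, 1 to 3 with 1 array left out. Numbers of relatives called: ovary 12 dpc, 1, became 2 with array class, with array class and testis 16 dpc array 1 left out, with cyclic loess, housekeeping centring, array weights and the replicate block, 0 with only the groups compared, and 0 to 1 with 1 array left out. Ovary 14 dpc, 4, became 8 with array class and that array left out, 7 with loess, 9 with weights, 2 with only the groups compared, and 2 to 4 with 1 array left out. Ovary 16 dpc, 5, became 9 with array class and that array left out, 9 with loess, 10 with housekeeping centring, 29 with weights, 3 with the low-signal filter, 2 with only the groups compared, and 3 to 8 with 1 array left out. Testis 12 dpc, 0, became 1 with array class, 1 with that array also left out, 3 with weights, 1 with only the groups compared, and 0 with 1 array left out. Testis 14 dpc, 0, became 1 with only the groups compared and 0 with 1 array left out; testis 16 dpc, 0, became 4 with weights and 0 to 1 with 1 array left out. The array weights did not fully converge. Wide-spread arrays only could not be fitted for the wild-type ovary at 16 dpc, where all 3 arrays are narrow. Wv/Wv ovary arrays 1 and 3 of that age are wide, so array class goes partly with genotype there. The causes of these moves were not tested.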
